A study of Mus musculus with 15 samples.

Results

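The annotated microRNA genes of mouse testis were examined in small RNA libraries made after periodate oxidation. Members were all genes whose symbol begins with Mir and a digit, or with Mirlet7, and that held at least 30 reads summed over the 6 small RNA libraries. Of 49585 genes in the table, 1190 had such a symbol, 173 of these held at least 1 read, and 31 reached the minimum. The 31 members held 251222 of the 251811 reads of all 1190 genes (99.8%). Members were thus chosen by their read totals, so the levels below are descriptions.

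The mice were of the B6D2F1 strain at postnatal day 28, and whole testis was the tissue. The small RNA libraries came from homozygous animals (Chr18-/-, labelled KO) and heterozygous animals (Chr18+/-, labelled HT control), with 3 libraries each. RNA-seq of ribosome-depleted total RNA added 3 libraries each from homozygous, heterozygous and wild-type (Chr18+/+, labelled WT control) testes. The series concerns mice without the pachytene piRNAs of a chromosome 18 locus. Whole testis holds germ cells and somatic cells together, and fewer cells of a type and less RNA per cell cannot be told apart. The labels do not say whether libraries of a group came from separate animals, and each p-value is then a statement about the spread of the libraries, which may be technical.

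MicroRNAs are short RNAs cut from a hairpin by Drosha with its partner Dgcr8 and then by Dicer, and they guide Argonaute proteins to messenger RNAs through a seed near their 5′ end. Their last base normally carries free hydroxyl groups, which periodate attacks, so that most of them should drop out of an oxidised library. piRNAs are longer, are cut from long single-stranded precursors rather than hairpins, and carry a methyl group added by Henmt1 at their last base, which shields them from periodate. Pachytene piRNAs appear in meiotic spermatocytes, come from a limited set of genomic loci and often begin with U.

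Most of the reads given to microRNA genes lay in hairpins annotated inside piRNA precursors. Of the 31 members, 16 lay within 10 annotated piRNA precursors on the same strand, and these 16 held 249384 reads, 99.3% of all member reads. The other 15 lay outside every precursor, none within 100 kb of one on either strand, and held 1838 reads (0.732%). Of the 30 Mir genes inside precursors, 16 were members (53.3%), 3 held fewer reads than the minimum and 11 held none. Of the 1160 Mir genes outside, 15 were members (1.29%). The members are therefore called microRNA genes by their symbols, with no statement on the ends of their RNAs. Whether the reads at the 16 hairpins had methylated ends was not tested, because the counts record neither the length nor the position of a read within a gene.

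The mature sequences show what the annotation holds at the 6 most read hairpins, all inside precursors, with every arm that RefSeq lists for them. They are RefSeq sequences for GRCm38.p6 (the mm10 assembly), 5′ to 3′, with the seed (bases 2 to 8) in capitals.

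mmu-miR-7217-5p: aACUUGUAucuugugagacagaagg
mmu-miR-7217-3p: uGAGAACCcacaagcaagaaga
mmu-miR-7230-5p: aGACUGCUguuucucugaguggc
mmu-miR-7230-3p: uUGAGUUGagacugucaguaggu
mmu-miR-468-5p: gACUGAUGuacugauaagaaacucagu
mmu-miR-7241-5p: aCUUGCAUgaguuaauacccacc
mmu-miR-7214-3p: cUCAGUCCugaccccuugagcgca
mmu-miR-7210-5p: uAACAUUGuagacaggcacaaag
mmu-miR-7210-3p: uUAUAUGUaaguaacaauguggcu

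For comparison, the following are mature sequences of members outside precursors, shown for the families with most reads and for those that share a seed.

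mmu-miR-9-5p: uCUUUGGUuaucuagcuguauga
mmu-miR-34b-5p: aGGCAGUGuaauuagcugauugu
mmu-miR-34b-3p: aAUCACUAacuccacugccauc
mmu-miR-34c-3p: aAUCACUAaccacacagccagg
mmu-miR-30e-5p: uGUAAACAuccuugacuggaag
mmu-miR-30c-5p: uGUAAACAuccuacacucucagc
mmu-let-7a-5p: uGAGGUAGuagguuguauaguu

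Among the listed sequences outside precursors, miR-34b-3p and miR-34c-3p shared the seed AUCACUA, and miR-30e-5p and miR-30c-5p shared GUAAACA. For Mir34c only miR-34c-3p was listed, so the seed of its opposite arm could not be compared. The Mir34c hairpin does hold the bases GGCAGUG, the seed of the other Mir34b arm, outside its listed arm. No annotated mature sequence from a hairpin inside a precursor shared its seed with another member. RefSeq listed 28 mature sequences for the 16 members inside precursors, of which 17 (60.7%) began with U, and 13 of the 16 genes had an arm that did. For 13 members outside, 9 of 24 mature sequences began with U (37.5%), against 717 of 1738 (41.3%) in the whole table. An arm beginning with U was listed for 9 of those 13 genes and for 600 of the 1058 genes of the whole table. Annotated lengths were 17 to 27 bases inside, with a median of 23, and 19 to 24 outside, with a median of 22.

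The hairpins themselves differed in how well they were predicted to fold. Below are 2 hairpins inside precursors and 2 outside, shown to compare the pairing of their arms. The 2 inside were the least stable of those listed by RefSeq, and the 2 outside had the most reads. Annotated mature arms are in capitals.

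Mir7210: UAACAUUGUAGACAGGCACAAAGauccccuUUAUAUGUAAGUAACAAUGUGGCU
Mir468: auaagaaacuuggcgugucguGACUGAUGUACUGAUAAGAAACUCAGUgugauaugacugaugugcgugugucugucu
Mir9-3: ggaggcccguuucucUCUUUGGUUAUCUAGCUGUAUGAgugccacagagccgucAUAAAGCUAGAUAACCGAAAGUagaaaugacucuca
Mir34b: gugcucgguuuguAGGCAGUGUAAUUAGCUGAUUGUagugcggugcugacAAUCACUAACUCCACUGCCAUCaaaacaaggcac

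By RNAfold, the minimum free energy per 100 bases was -16.9 kcal/mol for Mir7210 and -18.6 for Mir468, against -46.3 for Mir9-3 and -39.4 for Mir34b. Over the 15 hairpins inside precursors that RefSeq listed, the median was -27.9 (range -38.4 to -16.9). Over 10 members outside, it was -41.4 (range -56.3 to -35.9), and over all 1005 hairpins of the table it was -40.6. All 15 hairpins inside precursors folded less stably than that last median, as did 5 of the 10 outside. Of the 15, 12 also lay above the least stable of the 10 outside. The most stable of the 15, Mir7216 and Mir7242, were at -38.4 each, near Mir34b. Hairpins inside precursors were 51 to 79 bases long, and those outside were 68 to 108, so the per-base scale was used. How far length still affects energies on that scale was not tested. Mir7210 is also listed without bases beyond its mature arms, as are Mir7217, Mir7230, Mir7222, Mir7242, Mir7229, Mir7232, Mir7218, Mir7221, Mir7216 and Mir7215. The 10 hairpins outside, Mir9-3 and Mir34b among them, all have bases beyond both ends of their listed arms. How far such bases affect the energies was not tested either.

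**Figure D1:**
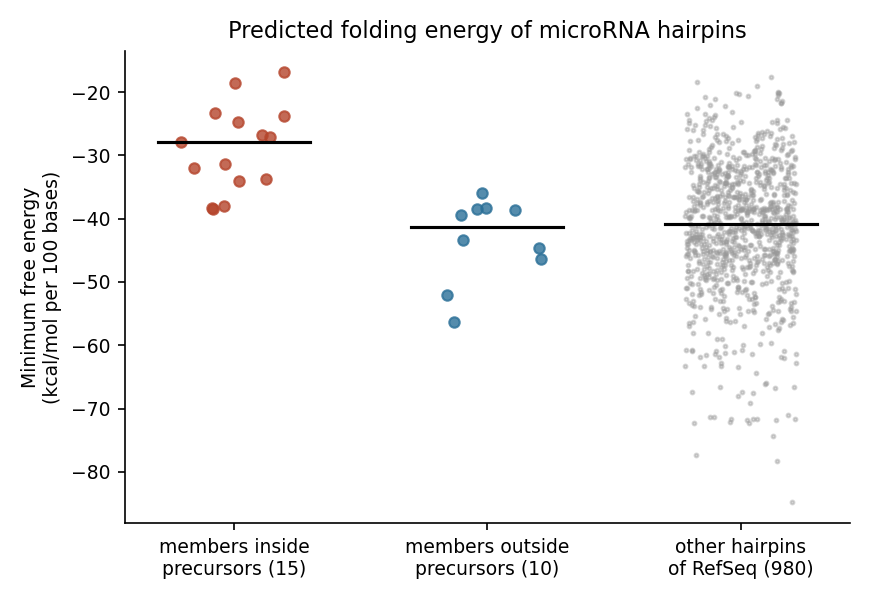
Minimum free energy per 100 bases (vertical axis, kcal/mol) of RefSeq hairpins of the members inside piRNA precursors, the members outside and the other hairpins of the table. Points are hairpins and bars are medians. The inside group had a median of -27.9, against -41.4 outside and -40.8 for the other 980 hairpins.

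The members inside precursors were among the most densely covered genes of the whole table. Per base of gene length, Mir7217 held 1187 reads and ranked 1 among the 5688 genes with at least 30 reads. Mir7230 held 925 reads per base (rank 2), Mir468 held 369 (rank 4) and Mir7241 held 334 (rank 5). Mir7215, the least read member inside a precursor, held 2.96 (rank 161). Outside precursors, Mir9-3 came highest at 6.68 reads per base (rank 121), followed by Mir34b at 3.74 (rank 148). Ranks per base favour short genes, and even Mir15a and Mir878, with 30 reads each, ranked 399 and 380. By total reads, the ranks were 26 for Mir7217, 28 for Mir7230, 41 for Mir468, 47 for Mir7241 and 1824 for Mir7215. In total reads, Mir7217 alone gave 29.3% of the reads of the 31 members, and the first 4 gave 69.9%.

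**Figure D2:**
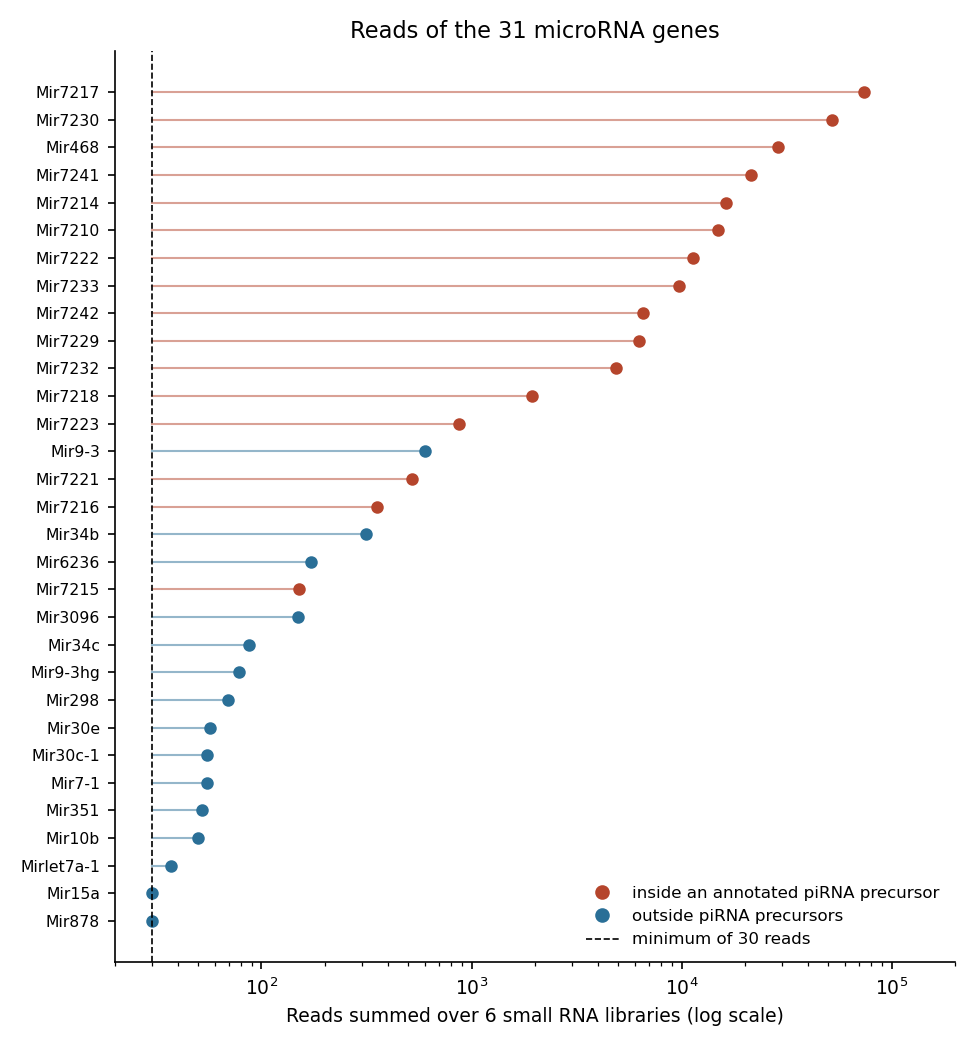
Reads of each of the 31 members summed over the 6 small RNA libraries (log scale), coloured by whether the gene lies inside an annotated piRNA precursor. The 13 genes with most reads, Mir7217 (73566) to Mir7223 (870), all lie inside precursors. The dashed line is the minimum of 30 reads.

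Several members shared a precursor, and neighbours in 1 precursor differed widely in their reads, which are given here without scaling for hairpin lengths of 51 to 79 bases. Mir7217 (chr17:27355738-27355799, plus strand, mm10) and Mir7218 lay within 2418 bases and held 73566 and 1946 reads, a ratio of 37.8. Mir7216, in the same precursor, held 353. Mir7222 held 11289 reads and its neighbour Mir7221 held 518, a ratio of 21.8. Such ratios varied from precursor to precursor: Mir468 (chr6:81896599-81896676, minus strand) held 5.91 times the reads of Mir7232, and Mir7241 (chr9:67727717-67727780, minus strand) 3.25 times those of Mir7242. Mir7230 (chr5:113337590-113337645, minus strand) held 51822 reads, and Mir7229 in the same precursor held 6251. Mir7214 (16353 reads), Mir7210 (14911), Mir7233 (9712), Mir7223 (870) and Mir7215 (151) were each the only member in their precursor.

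Counting neighbours on a strand with gaps of at most 10 kb, 14 members fell into 7 clusters of 2 genes. Of these clusters, 4 lay in precursors and 3 did not. The Mir34b and Mir34c hairpins, which share a primary transcript, spanned 612 bases (chr9:51103034-51103645, minus strand) and held 314 and 87 reads, a ratio of 3.61. Mir30e and Mir30c-1, both in introns of the transcription factor subunit gene Nfyc, held 57 and 55. The last pair was Mir9-3 (601 reads) with its host Mir9-3hg (78), a long non-coding RNA whose own symbol met the rule. With gaps of up to 50 kb there were 8 clusters with 17 members, and with gaps of up to 1 kb there were 3 with 6.

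Outside precursors the members were few and thinly covered. After Mir9-3 and Mir34b came Mir6236 with 173 reads and Mir3096 with 150. Mir3096 is annotated as a snoRNA in GENCODE, so that 29 of the 31 members were annotated as miRNA, the other exception being Mir9-3hg. Below Mir34c and Mir9-3hg, the rest held 30 to 69 reads, namely Mir298 near the imprinted Gnas locus, Mir30e, Mir30c-1, Mir7-1 in an intron of Hnrnpk, the X-linked Mir351, Mir10b of the Hoxd cluster, Mirlet7a-1, Mir15a in Dleu2 and the X-linked Mir878. At or just above the minimum stood Mirlet7a-1 with 37 reads and Mir15a and Mir878 with 30 each. Just under it stood Mir17hg with 29, Mir412 with 25 and Mir16-1, Mir449c and Mir541 with 24 each.

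MicroRNA families known from testis left few reads in the oxidised libraries. The miR-34 and miR-449 family, whose members share related seeds and act together in male germ cells, held 440 reads over 4 of its 6 genes. The X-linked cluster expressed in testis held 58 reads over 7 of 20 listed genes. Of these, Mir878 gave 30 and Mir470 gave 22, while Mir741 and Mir871 were at 0. Mir465, near Mir470 on the same strand but not on the list, held 8 more. The let-7 family, widespread in differentiated cells, held 77 reads over 10 of 12 genes, and the miR-10, miR-99 and miR-125 family held 59 over 5 of 8. The miR-17-92 cluster with its paralogues, linked to cell proliferation, held 10 reads over 3 of 15 genes, and the Dlk1-Dio3 imprinted cluster held 63 over 12 of 50. Mir17, Mir18, Mir19a, Mir20a, Mir19b-1 and Mir92-1, all at 0, lie within Mir17hg on its strand. Whether reads shared with Mir17hg were left uncounted was not tested, so these values are not read as absence. In the RefSeq table, 5 of the 24 mature sequences outside precursors also occurred at another locus, among them both arms of Mir9-3, which are listed at Mir9-1 and Mir9-2 too. The file headers show no option to count reads with several alignments, so the totals of such genes are uncertain.

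MicroRNAs of other cell types were at or near 0. The list of somatic cell microRNAs held 13 reads over 4 of 17 genes, with Mir145a of smooth muscle at 6 and Mir143 at 5. Mir126a of endothelium, Mir451a and Mir144 of red blood cells, Mir223 and Mir150 of leukocytes and Mir202 of gonadal somatic cells had no read. The miR-200 family of epithelia had none over 5 genes. The liver and striated muscle list had 1 read over 10 genes, in Mir499. With oxidation, such counts do not measure how many of those cells the tissue held. A count of 0 over all libraries allows up to 3 reads among 7807486, for counting error only.

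The next comparison asked whether loss of the chromosome 18 locus changed the microRNA genes. In RNA-seq, the minus-strand precursor of that locus (18_qE1_36451_1) held 4, 6 and 3 fragments in homozygotes, against 8948, 3983 and 4422 in heterozygotes and 9595, 7283 and 5609 in wild type. The small RNA table counted no precursors. Counted reads per small RNA library were 1122409 to 1446726 in homozygotes and 939641 to 1861402 in heterozygotes. A chi-square test over genes, divided by its degrees of freedom, gave 3.34 to 4.39 for pairs of homozygous libraries and 2.11 for heterozygous libraries 2 and 3. Heterozygous library 1 gave 25.7 and 27.2 against those 2. It stands apart, and results are given with and without it.

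As a share of all counted reads, the members did not differ between genotypes beyond the spread of the libraries. They took 3.13%, 3.30% and 3.36% in homozygotes, against 2.97%, 3.26% and 3.47% in heterozygotes. The mean was 3.26 ± 0.12% in homozygotes and 3.23 ± 0.25% in heterozygotes (SD, n = 3 each), a difference of 0.0294 percentage points. It was -0.104 points without heterozygous library 1 and -0.176 points without Mir7217. The exact two-sided permutation test gave p = 0.9, and 0.1 is the smallest p it can give with 3 against 3 libraries. Exact 95% intervals of each library's share were narrow, from 2.94 to 2.99% in heterozygous library 1 and from 3.44 to 3.51% in heterozygous library 3, and cover counting error only.

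The 15 members outside precursors varied more from library to library. They took 0.0255%, 0.0264% and 0.0281% of counted reads in homozygotes, against 0.0316%, 0.0102% and 0.0114% in heterozygotes, where library 1 was the highest of all 6 and libraries 2 and 3 were the lowest. The mean was 0.0267 ± 0.0013% in homozygotes and 0.0177 ± 0.0121% in heterozygotes (SD, n = 3 each; exact permutation p = 0.4). The 1507 snoRNA genes, whose RNAs are longer than small RNAs of either kind, moved in the same libraries. They took 2.74%, 2.94% and 3.47% in homozygotes, against 5.26%, 0.694% and 0.840% in heterozygotes (mean 3.05 ± 0.38% in homozygotes and 2.26 ± 2.59% in heterozygotes, exact permutation p = 0.6). The part of the snoRNA reads in the microRNA result was not tested.

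**Figure D3:**
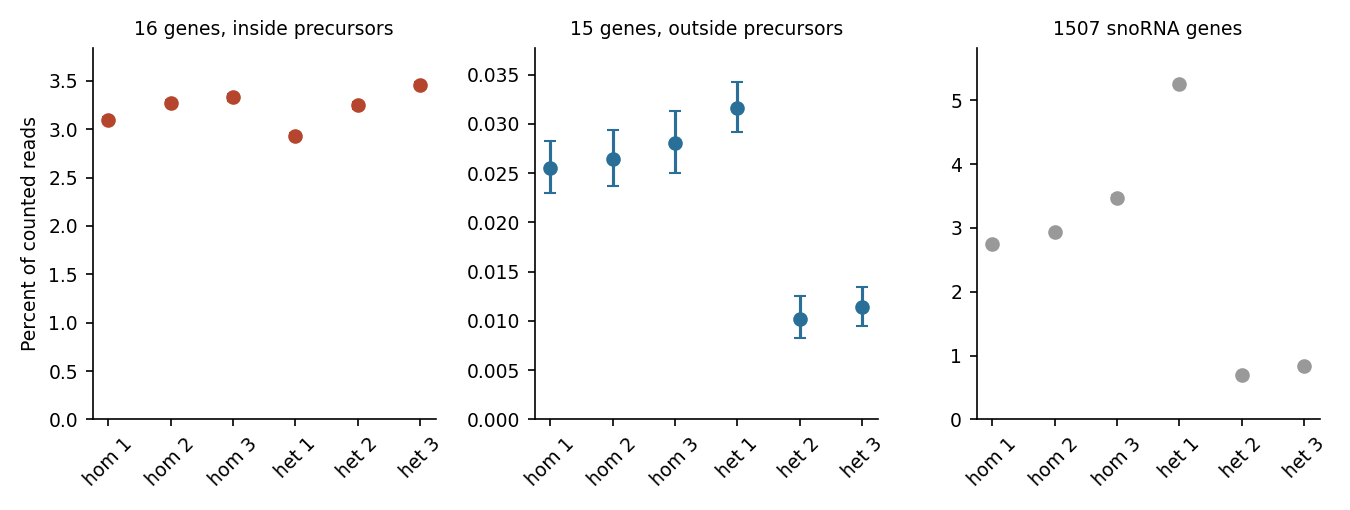
Percent of counted reads in each small RNA library taken by the members inside piRNA precursors, the members outside and all snoRNA genes, with homozygous libraries (hom) on the left and heterozygous libraries (het) on the right. Bars are exact 95% intervals of the count. Outside precursors, het 1 stood at 0.0316% and het 2 and het 3 at 0.0102% and 0.0114%. The snoRNA genes were likewise highest in het 1 and lowest in het 2 and het 3.

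Gene by gene, heterozygous library 1 had a median of 4.11 times the mean CPM (read counts relative to the library size as scaled by TMM) of heterozygous libraries 2 and 3 outside precursors (range 1.40 to 19.03 over 14 genes). The ratio was over 2 in 11 of them, and Mir298 gave no ratio because it had no read in either of the 2 libraries. Inside precursors the median was 1.08 (range 0.617 to 1.99 over 16 genes), and none was over 2. In heterozygous libraries 2 and 3, 14 of the 15 outside members lay under their own mean over the 6 libraries, in each library. Among the members inside precursors, 9 and 10 of 16 did.

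**Figure D4:**
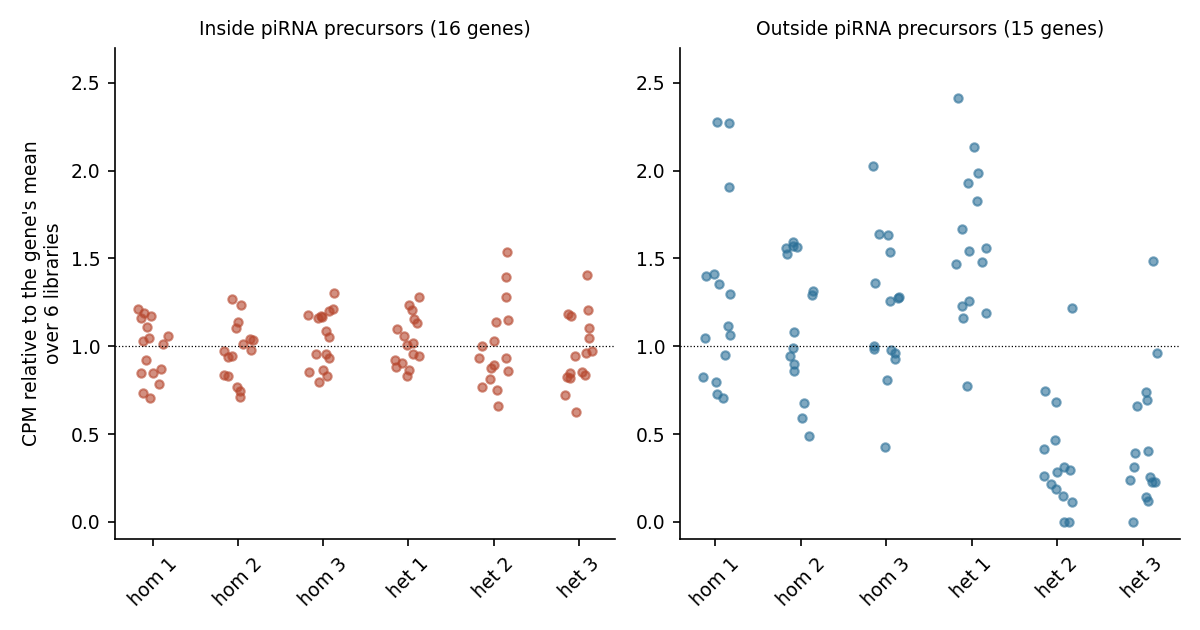
CPM of each member in each small RNA library divided by the gene's mean over the 6 libraries, for members inside (left panel) and outside (right panel) piRNA precursors, with homozygous libraries (hom) left of heterozygous libraries (het). Each point is a gene. Inside, all values lie between 0.624 and 1.53. Outside, medians are 1.12, 1.08 and 1.26 in the homozygous libraries, 1.54 in het 1, and 0.284 and 0.314 in het 2 and het 3.

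With all 6 libraries, no microRNA gene passed the test between genotypes. The edgeR quasi-likelihood test ran over 3581 genes that passed a filter on low counts, with Benjamini-Hochberg adjustment over all of them. It called 1 gene at adjusted p under 0.05, 0.0279% of those tested, namely Unc119b. Of the 31 members, 24 passed the filter, all 16 inside precursors and 8 outside, and 0 were called by edgeR and 0 by DESeq2. At an unadjusted p under 0.05 there were 6 by edgeR, all inside precursors, beside 312 of the 3581 genes (8.71%). The log2 fold change, homozygous over heterozygous, was positive in 16 and negative in 8 of the 24, with a median of 0.22, beside a median of -0.01 over all genes tested. The median was 0.18 inside precursors and 0.40 outside.

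Values of the homozygous and heterozygous libraries did not overlap in 7 of the 24 members, beside 15.9% of all genes tested. The 7 were Mir7230, Mir468, Mir7241, Mir7242, Mir7223, Mir7221 and Mir7215, all inside precursors. Of these, 5 were lower and 2 higher in homozygotes. Members inside precursors held a median of 8150 reads and those outside a median of 57. How far depth affects such separation, or the calls given below, was not tested. Mir7-1, which did not pass the filter, also had groups that did not overlap.

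Mir7241 and Mir7242, which share a precursor, both read lower in homozygotes. Mir7241 had 1997, 2355 and 2245 CPM in homozygotes, against 2443, 3949 and 3972 CPM in heterozygotes. All homozygous values lay under all heterozygous ones, and heterozygous library 1 lay nearest to them. The log2 fold change was -0.65 ± 0.20 (SE; unadjusted p = 0.0111, adjusted p = 0.557, edgeR). For Mir7242 the means were 747 ± 44.7 CPM in homozygotes and 970 ± 120 CPM in heterozygotes (SD, n = 3 each), a log2 fold change of -0.38.

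Mir7223, alone in its precursor, had 96.4, 82.6 and 92.4 CPM in homozygotes, against 137, 128 and 130 CPM in heterozygotes. Here the 3 heterozygous libraries lay close together. Its log2 fold change was -0.54 ± 0.16 (SE; unadjusted p = 0.0090, adjusted p = 0.557, edgeR), the lowest unadjusted p among the 24. Mir7221 had 53.9, 48.7 and 58.4 CPM in homozygotes, against 62.0, 105 and 82.5 CPM in heterozygotes, a log2 fold change of -0.62. Its neighbour Mir7222 read higher in homozygotes, at 1676 ± 365 CPM in homozygotes and 1298 ± 81.6 CPM in heterozygotes (SD, n = 3 each), with groups that overlapped.

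Among those higher in homozygotes, Mir468 had 4337, 3735 and 4326 CPM in homozygotes, against 3524, 3166 and 3093 CPM in heterozygotes. The groups did not overlap, and the log2 fold change was 0.34 ± 0.13 (SE; unadjusted p = 0.0304, adjusted p = 0.557, edgeR). Mir7217 had 8801, 12107 and 11614 CPM in homozygotes, against 8453, 7186 and 9202 CPM in heterozygotes. Homozygous library 1 fell within the heterozygous range, and the log2 fold change was 0.39 ± 0.16 (SE; unadjusted p = 0.0405, adjusted p = 0.557, edgeR). Mir7230 read lower in homozygotes, at 5987 ± 900 CPM in homozygotes and 7509 ± 565 CPM in heterozygotes (SD, n = 3 each).

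Leaving out heterozygous library 1 changed these counts. Then 617 of 3835 genes were called, 16.1% of those tested, with 353 higher and 264 lower in homozygotes. Of 26 members tested, 17 were called, 12 higher and 5 lower. Inside precursors 9 of 16 were called, with 4 higher (Mir7217, Mir468, Mir7214 and Mir7210) and 5 lower (Mir7230, Mir7241, Mir7242, Mir7223 and Mir7221). Outside, 8 of 10 were called, each higher in homozygotes. Of these 8, however, 6 (Mir3096, Mir34c, Mir298, Mir7-1, Mir351 and Mir10b) reached the filter's level in homozygous libraries alone, so that they could be tested only because they were higher there, and no support is read from their count. The other 2 were Mir34b and Mir9-3. Only 2 libraries stood for the heterozygotes in that comparison, and they were the pair that resembled each other most among all pairs of 1 genotype.

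Inside precursors the log2 fold changes without that library lay between -0.85 and 0.83. Mir7241 was at -0.85 ± 0.11 (SE; adjusted p = 2.18e-07, edgeR) and Mir7210 at 0.83 ± 0.12 (adjusted p = 2.41e-06). For Mir7210, the CPM values were 2221, 1948 and 2244 in homozygotes, against 2389, 1237 and 1166 in heterozygotes, so that heterozygous library 1 was the highest of the 6. The median over the 16 was 0.30, beside -0.03 over all genes tested.

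Outside precursors the fold changes rested on heterozygous libraries 2 and 3. Mir34b had 51.9, 41.3 and 49.0 CPM in homozygotes, against 59.6, 15.8 and 12.01 CPM in heterozygotes, and its log2 fold change was 0.64 with all libraries and 1.78 ± 0.28 (SE; adjusted p = 1.23e-05, edgeR) without heterozygous library 1. Mir9-3 had 61.2, 120 and 105 CPM in homozygotes, against 89.2, 35.6 and 50.4 CPM in heterozygotes, with 0.68 and 1.11 for the same pair of fits. Mir298 had 13, 15 and 11 reads in homozygotes, against 30, 0 and 0 reads in heterozygotes. Heterozygous library 1 was the highest of the 6 for Mir34b and Mir298 and lay within the homozygous range for Mir9-3.

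Mir3096, the member annotated as a snoRNA, moved with the snoRNA class. It had 19.3, 22.3 and 16.02 CPM in homozygotes, against 41.7, 1.98 and 2.40 CPM in heterozygotes. Among the members annotated as miRNA, Mir34b, Mir34c and Mir298 were also highest in heterozygous library 1 and lowest in heterozygous libraries 2 and 3. Mir9-3hg did not follow its embedded Mir9-3, with 9.31, 5.78 and 9.42 CPM in homozygotes, against 15.1, 11.9 and 7.21 CPM in heterozygotes. Mir7-1 had 15.3, 10.7 and 6.60 CPM in homozygotes, against 5.21, 0.990 and 1.602 CPM in heterozygotes. It was the single outside member whose groups did not overlap.

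**Figure D5:**
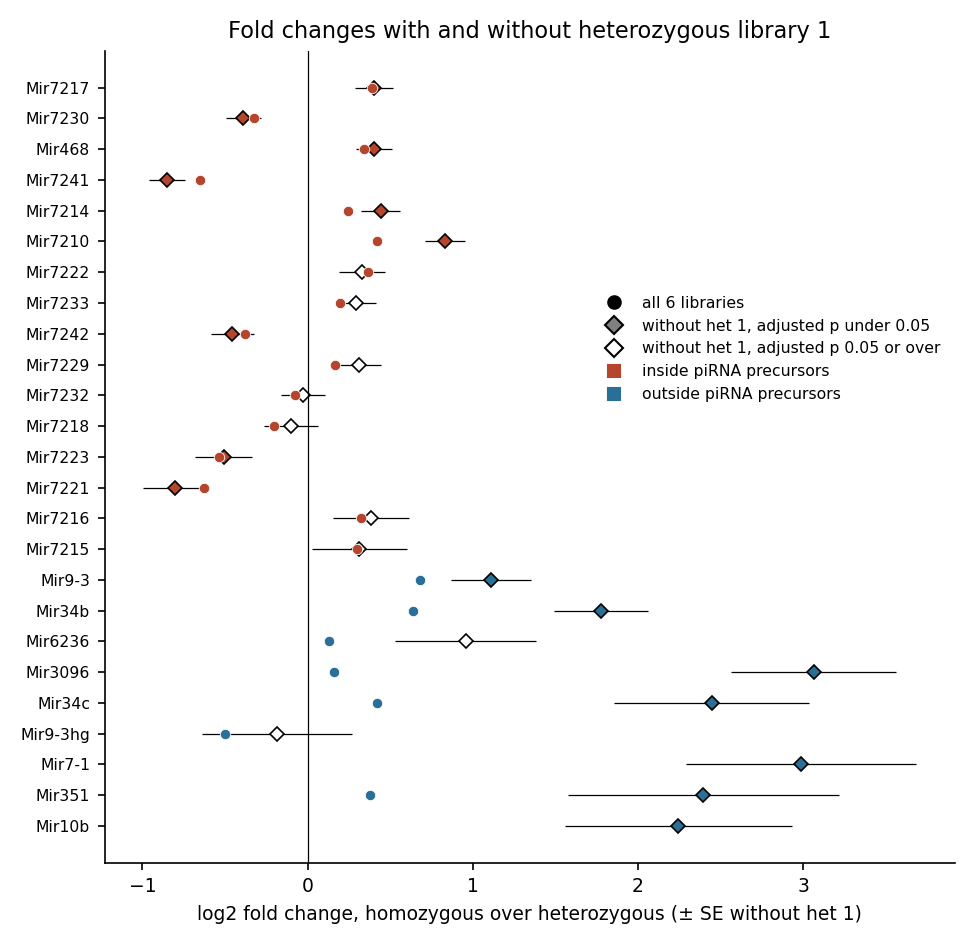
log2 fold change, homozygous over heterozygous, of members tested without heterozygous library 1 (diamonds, ± SE, filled where adjusted p was under 0.05) and with all 6 libraries (circles, none of them under 0.05). Inside precursors (upper 16) values lie between -0.85 and 0.83. Outside, Mir34b stood at 1.78 without that library and at 0.64 with all libraries. Mir3096, Mir34c, Mir7-1, Mir351 and Mir10b reached the filter's level in homozygous libraries alone, so no support is read from their filled diamonds. Mir298 is not drawn because it had no read in heterozygous libraries 2 and 3.

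The RNA-seq libraries were used to ask whether the precursors and the pathway genes behind these small RNAs changed. The RNA-seq counts cover 466 precursor annotations, with 1 or several forms per locus. Of 20 forms that contain a member, 8 passed the filter and 0 were called between homozygotes and heterozygotes by edgeR, with a median log2 fold change of -0.13 and none at an unadjusted p under 0.05. Over all features, 0.0289% were called in that comparison. The precursor of Mir7241 and Mir7242 (9_qC_31469_1) had 479, 438 and 470 CPM in homozygotes, against 577, 417 and 469 CPM in heterozygotes and 405, 363 and 358 CPM in wild type. The homozygous and heterozygous values overlapped (log2 fold change -0.08), and neither this precursor nor the host of Mir7233 (0.03) nor that of Mir7214 (-0.11) was called between those genotypes. Between heterozygotes and wild type, 2 of the 8 forms were called, both higher, beside 23.9% of all features. They were 9_qC_31469_1 (log2 fold change 0.38, adjusted p = 0.0359, edgeR) and the host form of Mir7210, 14_qA3_19970_2 (0.45, adjusted p = 0.0348). Between homozygotes and wild type, where 20.8% of all features were called, edgeR called 0 of the 8, although 2 had an unadjusted p under 0.05. All 3 forms of the host of Mir7217, Mir7218 and Mir7216 were listed at 0 in all 9 libraries, so that host was not measured. No form of the host of Mir7221 and Mir7222 passed the filter. Its only form with fragments held 4, 9 and 4 in homozygotes, against 21, 4 and 7 in heterozygotes. Of the hosts of Mir7230, Mir468, Mir7210, Mir7223 and Mir7215, some overlapping forms were at 0 and another form of each was tested. Whether fragments shared by overlapping forms went uncounted was not tested, so the values of those tested forms may not stand for the whole host.

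Between homozygotes and heterozygotes, 0 of 39 genes tested from the microRNA pathway and 3′ end lists were called by edgeR, 0 had an unadjusted p under 0.05, and DESeq2 also called 0. Dicer1, which cuts the precursor hairpin, had 48.8, 61.7 and 54.4 CPM in homozygotes, against 49.7, 51.7 and 58.4 CPM in heterozygotes and 42.8, 40.1 and 37.7 CPM in wild type. Drosha, which makes the first cut, averaged 40.9 ± 4.09 CPM in homozygotes, 42.3 ± 3.22 in heterozygotes and 36.6 ± 1.53 in wild type (SD, n = 3 each). Henmt1, which methylates piRNA ends, averaged 23.7 ± 1.95 CPM in homozygotes, 22.8 ± 1.67 in heterozygotes and 26.0 ± 3.99 in wild type (SD, n = 3 each). Piwil1, which binds pachytene piRNAs, averaged 208 ± 19.6 CPM in homozygotes, 212 ± 18.8 in heterozygotes and 229 ± 10.7 in wild type (SD, n = 3 each). Neither was called in any of the 3 comparisons. Ago2 was listed at 0 in all 9 libraries, which is not read as absence of its RNA. Whether its fragments went uncounted because another annotated feature overlaps it was not tested.

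Both genotypes that carry the deletion differed from wild type in some pathway genes. These 2 comparisons share the wild-type libraries. Homozygotes against wild type gave 8 called of 39, all higher, beside 20.8% of all features, with 7 of 27 from the microRNA pathway and 1 of 12 from the 3′ end and piRNA factors. Heterozygotes against wild type gave 10 of 39, with 8 higher and 2 lower, beside 23.9% of all features. The shares of the lists, at about the level of all features, are no result about the lists. The first count was 3 and 4 without homozygous libraries 2 and 3, and 5 and 4 without wild-type libraries 2 and 3. The second was 5 without heterozygous library 3 and 6 without wild-type library 2.

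Ago3, an Argonaute, had the lowest adjusted p in both comparisons, with 48.9 ± 1.15 CPM in homozygotes, 50.4 ± 3.55 in heterozygotes and 36.4 ± 2.23 in wild type (SD, n = 3 each). Its log2 fold change was 0.43 ± 0.09 for homozygotes against wild type (SE; adjusted p = 0.00767, edgeR) and 0.47 ± 0.09 for heterozygotes against wild type (adjusted p = 0.00486). Prkra, a partner of Dicer, and Dgcr8 followed in homozygotes, at 0.41 and 0.33. Lin28b, which blocks let-7 processing, and Asz1, a piRNA factor of the mitochondrial surface, followed in heterozygotes, at 0.61 and 0.53. Dicer1 stood at 0.45 in homozygotes and 0.40 in heterozygotes against wild type, and was called in both (adjusted p = 0.0130 and 0.0182, edgeR). Both genotypes with the deletion lay above wild type in Ago3, Dicer1 and Dgcr8, with no overlap of values, as they did in Prkra, Lin28b and Asz1. All of these genes were called in both comparisons, so the separation adds no support of its own.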

How the data were processed

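Per the labels' protocols, testis RNA was treated with periodate and then β-eliminated before small RNA adapters were ligated, and RNA-seq used a stranded kit after ribosomal depletion. The authors deposited raw read counts per gene. Per the file headers, featureCounts 1.6.1 counted small RNA reads on the sense strand over exons of GENCODE M12, without precursors, and featureCounts 1.6.2 counted RNA-seq fragments over gene bodies and piRNA precursors on the reverse strand. The submitters' processing notes name cutadapt 1.18 and the mm10 and mm9 builds. They also name HISAT2 2.1.0 and Bowtie2 2.2.5, but which reads each aligned is not given in the sources used here.

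Counts were tested with edgeR 4.0.16 in R 4.3.3 (filterByExpr by group, TMM, quasi-likelihood, adjusted p under 0.05), fitted over the 6 small RNA libraries and over the 9 RNA-seq libraries. DESeq2 1.42.0, other scalings and filters, and left-out libraries were alternatives. Shares were compared with an exact permutation test (scipy 1.17.1). The tests were checked on simulated data. Those data had the same spread for every gene and no library that stood apart, unlike the small RNA libraries, so the check does not cover that case. Hairpins were folded with RNAfold 2.7.2. Biotypes came from GENCODE M21, in which all 31 members had the same coordinates. RNA-seq held 21684791 to 41513634 counted fragments per library; the opposite-strand counts were not used. PCR reads without molecular identifiers are not independent molecules. Members, lists and the rule for named genes (called members, the 15 with the highest CPM, the lowest p in each direction, list members with most reads, and genes at the read minimum) were chosen with earlier results of these data known. Same-numbered libraries did not deviate together.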

Additional observations from a re-analysis of the deposited data

How the results depend on the processing

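No microRNA gene was called with DESeq2, RLE size factors, library totals, microRNA reads as library size, a mean of at least 10 reads, a minimum of 100 or of 10 reads for members, or only miRNA-annotated members outside precursors. Without a filter beyond 1 read, 1 member (Mir7-1, higher) and 43 genes in all were called. Leaving out single libraries gave 0 to 17 members and 0 to 617 genes, 17 and 617 without heterozygous library 1. Without heterozygous libraries 2 and 3 together, chosen after seeing the data, 1 member (Mir3096, lower) and 67 genes were called, with a lone heterozygous library assumed to vary like the others. The replicate block, with library numbers as pairs, called 0 members and 0 genes in all and left the share difference at 0.0294 points (exact sign-flip p = 0.75, smallest 0.25); same-numbered libraries correlated at -0.15, 0.02 and -0.08, so the numbers do not pair them.

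The share difference was -0.0922 points without the 10 genes with most reads in the total, -0.176 without Mir7217, and -0.104 to 0.149 leaving out single libraries. Of the 24 members with a fold change, 15 kept its sign under all 14 alternatives. Without heterozygous libraries 2 and 3, it turned to -0.0844 for Mir7214, -0.15 for Mir7210, -0.0902 for Mir7229, -0.32 for Mir34b, -0.68 for Mir6236, -1.10 for Mir3096, -0.68 for Mir34c, -0.73 for Mir298 and -0.70 for Mir351. Leaving out single libraries, it ran from -0.64 to 0.96 for Mir6236, from -0.33 to 3.07 for Mir3096, from -0.00438 to 2.45 for Mir34c and from -0.0725 to 2.40 for Mir351. The cause was not tested. Counts of called pathway genes ran from 3 to 9 for homozygotes and from 5 to 8 for heterozygotes against wild type leaving out single libraries. Depth limits the members outside precursors, 7 of which did not pass the filter on low counts.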
